A study of Mus musculus with 2 samples.

Results

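The Notch genes described here are 10 core members of 1 signalling pathway: the receptors Notch1, Notch2 and Notch3, the ligands Dll1, Dll3 and Jag1, the DNA-binding partner Rbpj, and the target genes Hes1, Hes5 and Hey1. They were chosen by name and not by a rule on their measured values, though with earlier results of these data known. All 10 passed the minimum of 3 kept cells with a molecule, as 16301 of the 19608 genes in the files did. They were read in Sox1-GFP+ cells sorted from the mouse tail (1 library) and from the mouse brain (1 library). Both libraries came from mice that carry a GFP reporter at Sox1, a gene of the neuroepithelium, so GFP marks cells by the activity of Sox1. According to the study's methods the tail donors were in their first days after birth and the brain donors were young adults. Both tissues were minced and dissociated with trypsin, and the sorted primary cells were captured directly for whole-transcriptome sequencing. Sox1 itself was counted in 192 tail and 675 brain cells that were kept, at 83.8 and 117 CPM (molecules per 1000000). Tissue, age and library differed together and cannot be told apart, and neither the number of mice nor any pooling behind a library was given in the sources used here. The study asked whether neural stem cells exist outside the central nervous system, and the comparison of tail with brain asks how alike the 2 populations are.

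In the Notch pathway, a ligand on 1 cell binds a receptor on its neighbour, the receptor is cut, and its inner part moves to the nucleus, where it joins Rbpj and switches on genes such as Hes1, Hes5 and Hey1. The Hes and Hey proteins repress proneural genes, and proneural factors in turn switch on delta ligands. In the adult brain the pathway is known for holding neural stem cells in a quiescent state, while committed progenitors carry delta ligands. Dll1 activates receptors on neighbours, whereas Dll3 is mostly held inside the cell and is known as an inhibitor of Notch signalling.

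A cell was kept when its number of genes lay between 200 and 4000, exclusive, and its mitochondrial share was below 40%. This left 1964 of 2469 barcodes with 2817103 molecules for the tail and 7988 of 12111 with 6424466 for the brain, at medians of 1282 and 696 molecules per cell. Levels are given as CPM, taken over the molecules of all cells of a set summed. Fewer cells that use a gene and less RNA of it per cell cannot be told apart in such sums. With 1 library per tissue no test was possible, and the 95% intervals are exact intervals that cover counting error only. A cell was called marked by a gene when it held at least 2 of its molecules, which gave 408 tail and 4891 brain cells for Slc1a3, 1260 and 419 for Igfbp5, 37 and 53 for Tmem212, 103 and 198 for Top2a, 67 and 560 for Stmn2, and 177 and 36 for Col1a1. A further 478 tail and 2225 brain cells were marked by none. The files shared 29 cell indices, 18 of them kept in both, and without these the calls over all cells numbered 3 and 2 members as before.

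The sets of marked cells were checked against marker lists, counting markers at least 2-fold above the rest of the library. Tmem212-marked cells had 8 of 8 ependymal markers in both libraries, Top2a-marked cells 8 of 8 cycling markers, and Stmn2-marked cells 8 of 8 markers of neuroblasts or neurons. Stmn2-marked brain cells also had 7 of 8 cycling markers (2203 against 653 CPM in the other cells). Slc1a3 marked an astroglial set in the brain, with 9 of 10 astroglial markers summing to 43244 CPM, but in the tail the same list had 4 of 10 and summed to 963.5 CPM. Igfbp5 marked different cells in the libraries. In the tail its set had 4 of 6 markers of radial glia or neural progenitors and 5 of 10 astroglial ones (661 CPM in sum). In the brain it had 8 of 8 cycling markers (2292 CPM) beside 14413 CPM of astroglial markers, against 33783 CPM of the latter in the other cells. Of the 419 brain cells, 173 were also marked by Slc1a3 and 37 by Top2a. In the tail, 387 of the 408 Slc1a3-marked cells were marked by Igfbp5 too. Col1a1 marked fibroblasts in the tail (6 of 6 markers), whereas the brain set had 5 of 6 (3157 CPM) beside 45881 CPM of astroglial markers, and 27 of its 36 cells were also marked by Slc1a3, so it is called here by its mark alone. The tail Top2a set was mixed, with 10850 CPM of fibroblast and 2652 CPM of keratinocyte markers. Cells with no mark held neuronal (3473 CPM), keratinocyte (3915 CPM), endothelial and macrophage markers in the tail, and neuronal, macrophage and oligodendrocyte markers in the brain.

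Over all kept cells, Dll1, Dll3 and Hes1 were higher in the tail, whereas Hes5 and Hey1 exceeded 2-fold in favour of the brain, and the 3 receptors, Jag1 and Rbpj lay within or across 2-fold. A gene counted as higher in 1 library when it had at least 50 molecules over both and the whole interval of its ratio lay beyond 2-fold. By this rule 3 of 10 members were called for the tail and 2 of 10 for the brain, against 13.2% and 9.07% of the 11345 genes with enough molecules (1492 and 1029 genes). Under TMM scaling these were 1118 and 1350 genes and under median-of-ratios scaling 1116 and 1356, so the balance over all genes turned with the scaling. The members' median log2 ratio of tail over brain was 0.15, and that of all genes 0.28. Other ways of scaling the libraries moved every ratio over all cells down by 0.36 (TMM) or 0.37 (median of ratios) on the log2 scale, and those between Slc1a3-marked cells by 0.59 or 0.56. Under both scalings Dll1 lost its call, while Dll3, Hes1, Hes5 and Hey1 kept theirs.

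**Figure D1:**
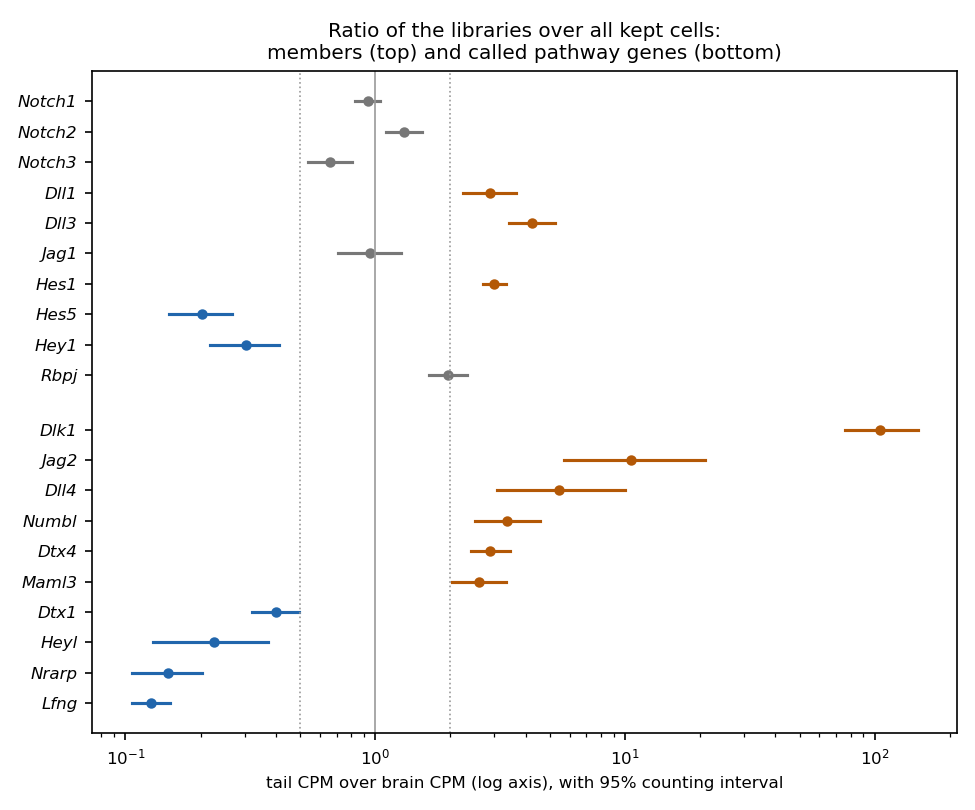
Ratio of tail CPM to brain CPM over all kept cells (log axis) for the 10 members (top) and for the other pathway genes that were called (bottom); points are ratios, lines 95% counting intervals, dotted lines 2-fold, and orange and blue mark genes called higher in tail and in brain. The 3 receptors and Jag1 sit around 1, Dll1, Dll3 and Hes1 lie to the right, and Hes5 and Hey1 to the left.

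The 3 receptors differed by less than 2-fold between the tissues. Notch1 (chr2:26457903-26516663, minus strand, GRCm38) had 430 tail molecules (153 CPM) and 1050 brain molecules (163 CPM), and its tail over brain ratio of 0.934 (0.833 to 1.05) came to 0.728 (0.649 to 0.815) under TMM and 1.05 as a mean over cells. Notch2 (chr3:98013527-98150361, plus strand) stood at 82.0 CPM in tail cells against 63.0 CPM, and its ratio of 1.30 (1.102 to 1.53) came to 1.01 (0.858 to 1.19) under TMM. Notch3 (chr17:32120820-32166852, minus strand), a receptor also known from mural cells of blood vessels, stood at 45.4 against 69.0 CPM, with a ratio of 0.659 (0.537 to 0.804). The mural marker list came to 88.4 CPM for tail and 24.6 CPM for brain, the reverse of Notch3, and their part in it was not tested. No receptor was called in either direction. The 10 members are protein-coding genes, and genes that overlap them in the annotation held at most 1 molecule per library.

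Among brain cells, Notch1 was spread widely while Notch2 and Notch3 were found mainly in Slc1a3-marked cells. Notch1 stood at 235 CPM in Top2a-marked, 211 CPM in Igfbp5-marked and 183 CPM in Slc1a3-marked brain cells, and at 96.0 CPM in Stmn2-marked ones. The first 3 of these differed by less than their intervals, and Stmn2-marked cells, taken here as below without those that also bear the Slc1a3 mark, lay under Slc1a3-marked cells (ratio 0.518, 0.367 to 0.712). Notch2 had 351 of its 405 brain molecules (86.7%) in Slc1a3-marked cells, at 85.3 CPM, and 2 molecules each in Top2a-marked and Stmn2-marked cells. Notch3 had 382 of 443 (86.2%) there, at 92.8 CPM, against 0 of 331564 molecules in Top2a-marked cells and 1 molecule in Stmn2-marked cells. Top2a-marked brain cells thus carried Notch1 with little or no Notch2 and Notch3 counted in them.

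In the tail, Notch2 and Notch3 were counted in Top2a-marked cells but hardly in Stmn2-marked ones. In Slc1a3-marked and Igfbp5-marked tail cells Notch1 stood at 199 and 180 CPM, Notch2 at 129 and 115 CPM, and Notch3 at 83.6 and 58.9 CPM. Stmn2-marked tail cells held 16 Notch1 molecules (125 CPM), 0 Notch2 molecules of 127714 and 1 Notch3 molecule. Top2a-marked tail cells held 58.9 CPM of Notch2 and 47.9 CPM of Notch3, the latter at least 5.29-fold higher than in Top2a-marked brain cells, where a count of 0 was taken to allow 3 molecules over the set. Without the Col1a1-marked cells in that tail set the Notch3 level was 66.2 CPM. Fibroblasts of the tail were low in Notch1, at 34.7 CPM in Col1a1-marked cells (0.176 of the Slc1a3-marked cells, 0.0933 to 0.308), and carried Notch2 at 76.8 CPM and Notch3 at 54.5 CPM.

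**Figure D2:**
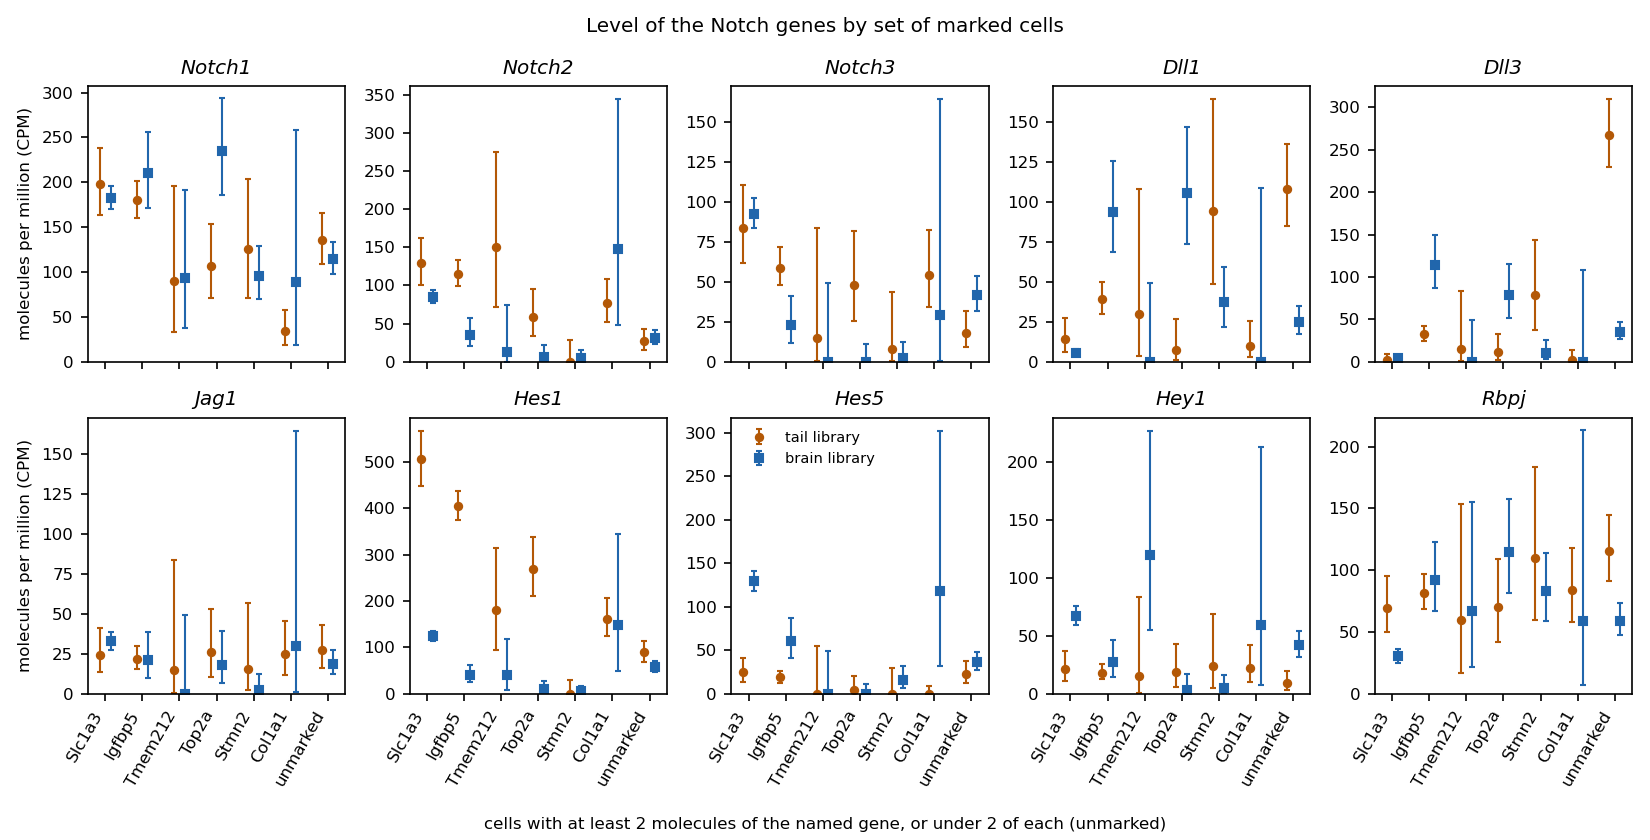
Level of each member (CPM, linear axis from 0) in cells marked by 1 of 6 genes and in unmarked cells, with tail as orange circles and brain as blue squares and bars for 95% Poisson intervals; sets of a library can share cells. In the brain, Notch2, Notch3, Hes1 and Hes5 stand high in Slc1a3-marked cells and near 0 in Top2a-marked and Stmn2-marked cells, while Dll1, Dll3 and Rbpj stand higher in Top2a-marked than in Slc1a3-marked cells, and in the tail Dll3 is highest in unmarked cells.

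Of the 10 members, Dll3 leaned most to the tail, and Dll1 lay close to Hes1. Dll3 (chr7:28293553-28302238, minus strand) had 247 tail molecules (87.7 CPM) and 133 brain molecules (20.7 CPM), which gave a ratio of 4.24 (3.42 to 5.27). Dll1 (chr17:15367354-15376872, minus strand) had 151 (53.6 CPM) and 120 (18.7 CPM), or a ratio of 2.87 (2.24 to 3.68). Both ratios grew where a few deep cells weighed less: without the deepest 5% of cells they were 7.53 (5.77 to 9.92) for Dll3 and 4.73 (3.52 to 6.40) for Dll1. With under 20% mitochondrial molecules in place of 40%, Dll1 came to 2.23 (1.73 to 2.89) and was no longer called, and Dll3 came to 3.30 (2.64 to 4.14).

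The cells that carried delta ligands differed between the tissues. In the tail, 178 of 247 Dll3 molecules (72.1%) lay in the unmarked cells, at 267 CPM (interval 229.6 to 309.8), and 1 lay in Slc1a3-marked cells. In the brain, Dll3 was highest in Igfbp5-marked (115 CPM) and Top2a-marked cells (78.4 CPM) and stood at 4.86 CPM in Slc1a3-marked ones. Brain Igfbp5-marked cells without an Slc1a3 mark exceeded Slc1a3-marked cells 37.1-fold (21.7 to 66.0). Most tail Dll3 molecules thus came from cells with no mark, whereas in the brain 55 of 133 lay in Igfbp5-marked, 51 in unmarked and 26 in Top2a-marked cells, sets that share cells in part. Among unmarked cells Dll3 was 7.54-fold (5.49 to 10.5) and Dll1 4.32-fold (2.86 to 6.63) higher in the tail, and Hey1 was 4.63-fold (2.01 to 13.1) higher in the brain, against 5.46% of 6902 genes higher in tail and 7.33% higher in brain.

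Dll1 followed the same division with a wider spread. In the brain it stood at 106 CPM in Top2a-marked, 93.9 CPM in Igfbp5-marked, 37.1 CPM in Stmn2-marked and 5.35 CPM in Slc1a3-marked cells. In the tail it stood at 108 CPM in unmarked, 94.0 CPM in Stmn2-marked and 39.0 CPM in Igfbp5-marked cells, and at 7.37 CPM (2 molecules) in Top2a-marked ones. Top2a-marked cells were therefore among the highest in Dll1 in the brain and among the lowest in the tail.

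Between Igfbp5-marked cells the order of the tissues turned, and the mark takes in different cells in each. Dll3 was 3.54-fold (2.38 to 5.25) higher in brain Igfbp5-marked cells, with 54 tail and 55 brain molecules, 1 of the 8 members with enough molecules there. Hes1 was the 1 member higher in the tail. The shares over all 7000 genes tested were 5.7% higher in brain and 8.46% higher in tail. The Dll3 call was lost when 1 Igfbp5 molecule was enough for the mark (ratio 0.683, 0.494 to 0.945) and in cells low in immediate early genes, described below (0.534, 0.274 to 1.08). Dll1 was not called, at 39.0 and 93.9 CPM.

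Genes that led the ligand-carrying cells included neuronal and progenitor transcription factors in the tail and cell cycle genes in the brain. The 160 tail cells with a Dll3 molecule were led by Nhlh1, a transcription factor of newly born neurons, at 217 CPM against 21.6 CPM in the other cells (10.0-fold, 6.68 to 15.0), followed by Nhlh2 and Dbx1, a transcription factor of ventral spinal cord progenitors. The 119 tail cells with Dll1 were led by Dbx1 (220 against 23.9 CPM) and Gata2 (288 against 47.7 CPM), a transcription factor of some spinal interneurons. Among the genes that led the 95 brain cells with Dll3 were Cdk6, a cell cycle kinase (372 against 26.3 CPM, 14.2-fold, 10.3 to 19.3), and Ccnd1, a driver of the cell cycle (193 against 13.7 CPM). These genes, and the others said below to lead the cells with a member, were chosen after their values were seen.

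The marker lists told the same carriers apart. Of 8 neuronal markers, 8 were higher in the 249 tail cells with Dll1 or Dll3 than in the other tail cells, at 4470 against 1303 CPM in sum, and 0 of 8 cycling markers were (303 against 1207 CPM). In the 173 brain cells with either ligand, 8 of 8 cycling markers were higher (4430 against 613 CPM) and 8 of 8 neuronal ones (3258 against 1876 CPM), while astroglial markers stood at 1964 against 33580 CPM. Fibroblast markers summed to 278 CPM in the tail carriers against 6515 CPM in the other tail cells, and erythroid genes to 2092 against 718 CPM. The part of the erythroid signal in these values was not tested.

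Jag1 (chr2:137081456-137116644, minus strand), the ligand of many epithelial and vascular tissues, was even across tissues, with 70 tail molecules (24.9 CPM) and 168 brain molecules (26.2 CPM), and a ratio of 0.95 (0.709 to 1.26). In the brain, Slc1a3-marked cells held 135 of its 168 molecules, at 32.8 CPM, against 20.9 CPM in Igfbp5-marked and 18.1 CPM in Top2a-marked cells, which did not lie apart from them, and 1 molecule in Stmn2-marked cells, which did. In the tail its levels ran from 15.0 to 27.0 CPM over the sets, and none of the 15 pairs of sets lay apart. Brain cells with a Jag1 molecule held Hes1 in 14.3% (9.28 to 20.7) of 161 cells, against 6.43% (5.89 to 6.99) of the other cells, but with cells thinned to 400 molecules, as described below, the shares were 4.11% (0.856 to 11.5) and 3.63% (3.21 to 4.08).

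Rbpj (chr5:53466152-53657362, plus strand), through which all receptors act, ran against the target genes in the brain. It had 248 tail molecules (88.0 CPM) and 289 brain molecules (44.98 CPM), and its ratio of 1.96 (1.65 to 2.33) was not called. Among brain sets its level was lowest in Slc1a3-marked cells, at 30.1 CPM, against 115 CPM in Top2a-marked, 91.8 CPM in Igfbp5-marked and 83.0 CPM in Stmn2-marked cells. In the tail it stood between 59.9 and 110 CPM in every marked set, and none of the 15 pairs lay apart. Between Slc1a3-marked cells its ratio was 2.31 (1.58 to 3.33).

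The targets split: Hes1 was higher in the tail, and Hes5 and Hey1 in the brain. Hes1 (chr16:30064384-30067796, plus strand) had 787 tail molecules (279 CPM) and 598 brain molecules (93.1 CPM), a ratio of 3.00 (2.695 to 3.34). Hes5 (chr4:154960923-154962371, plus strand), a marker of neural stem cells with active Notch signalling, had 52 (18.5 CPM) and 588 (91.5 CPM), which is 4.96-fold (3.73 to 6.72) higher in the brain. Hey1 (chr3:8663359-8667256, minus strand) had 46 (16.3 CPM) and 346 (53.9 CPM), which is 3.30-fold (2.42 to 4.59) higher in the brain. The tissue with more Hes1 was the one with less Hes5 and Hey1.

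For Hes1 and Hes5 the same split stood between Slc1a3-marked cells, where 8 members had enough molecules. Hes1 was 4.09-fold (3.53 to 4.73) higher in the tail, at 505 against 124 CPM, as 13.1% of the 8739 genes tested were. Hes5 was 5.29-fold (3.12 to 9.74) higher in the brain, at 24.4 against 129 CPM, as 10.2% were. Hey1 stood at 20.9 against 67.1 CPM (tail over brain 0.312, 0.159 to 0.553) and was not called, except as higher in the brain under TMM scaling (tail over brain 0.207, 0.105 to 0.367), under median-of-ratios scaling and with 1 marker molecule. Notch1, Notch3 and Jag1 had ratios of 1.09 (0.885 to 1.33), 0.901 (0.653 to 1.22) and 0.744 (0.396 to 1.29) there, and that of Notch1 came to 0.720 (0.586 to 0.878) under TMM.

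Tail cells with Hes1 often held several of its molecules. In the tail 435 cells held Hes1, 167 of them at least 2 molecules and 1 cell 16, whereas 526 brain cells held it, 63 with at least 2 and none with more than 4. These counts are unthinned, and tail cells were deeper (median 1282 against 696 molecules), which by itself raises them in the tail. Across tail sets the Hes1 level ran from 505 CPM in Slc1a3-marked and 405 CPM in Igfbp5-marked to 269 CPM in Top2a-marked and 161 CPM in Col1a1-marked cells, with 0 in Stmn2-marked cells. Stmn2-marked cells were thus without a Hes1 molecule among 127714 in the tail, which allows up to 23.5 CPM, and held 2 molecules in the brain (4.37 CPM). Between Top2a-marked cells Hes1 had 73 tail and 3 brain molecules, a ratio of 29.7 (9.78 to 147), the 1 call among 3 members tested, where 7.26% of 2327 genes were higher in tail and 6.96% in brain. Without Col1a1-marked cells this ratio was 36.0 (11.8 to 179), and in Top2a-marked cells with no other mark it was 11.3 (1.27 to 536) and not called. Between Igfbp5-marked cells it was 10.2 (6.499 to 17.1), at 405 against 39.6 CPM. Of the 2 members with enough molecules in Stmn2-marked cells, Notch1 and Rbpj, 0 were called, where 3.06% of 2318 genes were higher in tail and 5.44% in brain.

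Immediate early genes, which tissue dissociation can induce within minutes, were higher in tail cells with a Hes1 molecule than in those without. In the brain they were lower in cells with Hes1. A list of 10 of them (Fos, Fosb, Jun, Junb, Egr1, Klf4, Nr4a1, Atf3, Ier2 and Dusp1, drawn up after the data were seen) reached 13070 CPM in tail cells with Hes1 and 6739 CPM in those without, and all 10 were higher. In the brain they summed to 1122 CPM in cells with Hes1 and 5027 CPM in those without, and none of the 10 was higher. Tail cells with Hes1 were led by Spink1 (167 against 19.0 CPM), and Klf4, Nr4a1 and Atf3 of the list were among the genes that followed. The list and the tail contrast are therefore not independent. Other lists differed too. In tail cells with Hes1, 8 of 8 cycling markers (1684 against 893 CPM) and 6 of 6 of radial glia or neural progenitors (4916 against 3544 CPM) were higher. Of the neuronal markers 0 of 8 were (422 against 2134 CPM). Slc1a3-marked cells carried the immediate early list at 7616 CPM if from tail and 832 CPM if from brain. Over the tail sets the 2 ran together only in part. Stmn2-marked cells had the lowest sum, 3202 CPM, with 0 Hes1 molecules. Unmarked cells came next at 4893 CPM and held Hes1 in 8.37% of cells, against 22.1% of the whole library. Col1a1-marked cells had the highest sum of the tail sets, 11773 CPM, with 161 CPM of Hes1, while Hes1 was highest in Slc1a3-marked cells. When only cells with at most 5000 CPM of the list were kept (1130 tail and 6041 brain cells), Hes1 came to 145 against 116 CPM, a ratio of 1.25 (1.06 to 1.46), and lost its call. Between Slc1a3-marked cells the ratio came to 2.15 (1.71 to 2.69), not called, and between Igfbp5-marked cells to 4.33 (2.42 to 8.53), still called.

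In Top2a-marked cells and in Stmn2-marked brain cells the immediate early genes and Hes1 did not run together. Top2a-marked cells carried them at 9940 CPM (tail) and 11542 CPM (brain), with Hes1 at 269 and 9.05 CPM. Among the Top2a-marked cells low in these genes, however, the Hes1 ratio came to 4.86 (1.15 to 43.3) and was not called. Stmn2-marked brain cells had the highest sum, 17110 CPM, with 4.37 CPM of Hes1, whereas Stmn2-marked tail cells had 3202 CPM and 0 Hes1 molecules. In the cells low in these genes, Dll1 and Dll3 were 17.1-fold (10.5 to 29.1) and 15.5-fold (10.8 to 22.9) higher in the tail. This selection left 18 of 101 brain cells with Dll1 and 25 of 95 with Dll3, against 86 of 119 and 112 of 160 in the tail. Brain ligand cells were high in these genes (11259 against 4462 CPM in the other cells, 10 of 10 higher) and tail ligand cells were not (4751 against 8858 CPM, 1 of 10 higher). In the same cells Rbpj was 2.86-fold (2.26 to 3.62) higher there, and Hes5 and Hey1 were 10.97-fold (6.70 to 19.3) and 3.62-fold (2.48 to 5.49) higher in the brain. That is again 3 and 2 members, now with Rbpj in place of Hes1, where 18.3% of 10140 genes were higher in tail and 10.1% in brain. This choice of cells also shifts the mix, since it keeps 4735 of 4891 Slc1a3-marked brain cells but 253 of 408 in the tail.

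**Figure D3:**
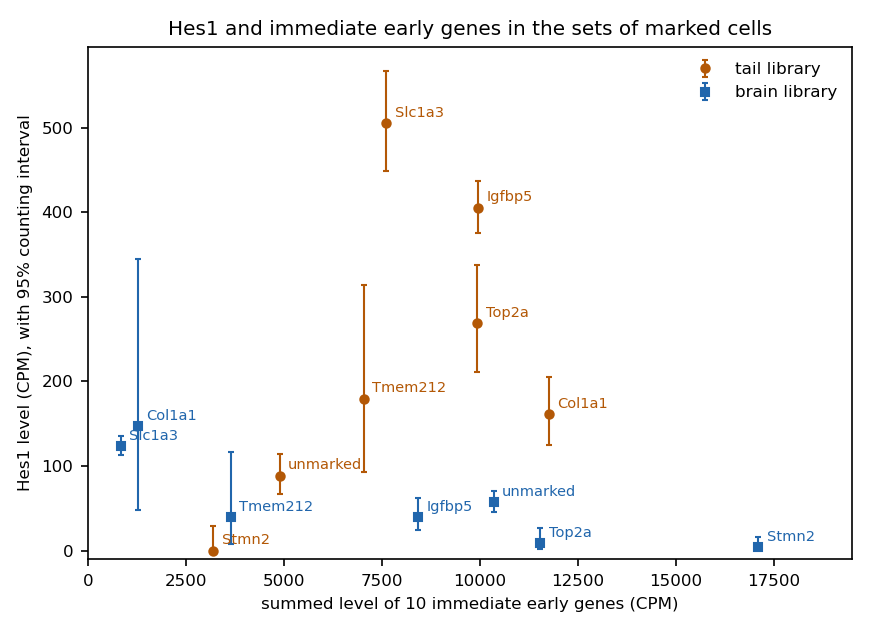
Hes1 level (CPM, with 95% Poisson interval) against the summed level of 10 immediate early genes (CPM) in each set of marked cells and in unmarked cells, tail as orange circles and brain as blue squares. Slc1a3-marked tail cells lie at 505 CPM of Hes1 and 7616 CPM of immediate early genes, while Stmn2-marked brain cells, with 17110 CPM of these genes, lie at 4.37 CPM of Hes1. Among the tail sets, Stmn2-marked cells lie lowest on both axes.

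Hes5 was counted mainly in the astroglial set of the brain and in few tail cells. Of its 588 brain molecules 531 (90.3%) lay in Slc1a3-marked cells, 29 in Igfbp5-marked cells (60.5 CPM), 7 in Stmn2-marked cells (15.3 CPM) and 0 in Top2a-marked and Tmem212-marked cells. The 52 tail molecules came from 26 cells, and 1 cell held 7. Col1a1-marked fibroblasts of the tail held 0 Hes5 molecules of 403549, which allows up to 7.43 CPM. The 26 cells were led by Dbx1 (771 against 26.3 CPM) and Dll1 (505 against 47.5 CPM), and 17 of them held a Dll1 or Dll3 molecule. Brain Hes5 cells were led by Cyp4f15 and Tnfrsf19 (173 against 69.2 CPM), and held Nr2e1, a transcription factor of neural stem cells, at 105 against 42.6 CPM. Their markers of radial glia or neural progenitors summed to 1994 against 2064 CPM (2 of 6 higher). Their astroglial markers summed to 42434 against 31596 CPM (8 of 10 higher).

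Hey1 had its highest brain level in the few Tmem212-marked cells. In the brain it stood at 120 CPM (9 molecules, 54.8 to 227) in Tmem212-marked and at 67.1 CPM in Slc1a3-marked cells, which did not differ beyond their intervals, and at 3.02 and 4.37 CPM in Top2a-marked and Stmn2-marked cells. The 320 brain cells with Hey1 were led by Pcp4l1 (104 against 20.6 CPM) and Dynlrb2 (75.7 against 14.1 CPM), but 8 of them were Tmem212-marked, and Slc1a3-marked cells held 276 of the 346 Hey1 molecules. In the tail, with 46 molecules in all, none of 15 pairs of sets lay apart. Tmem212-marked cells were too few for any member to reach 50 molecules, so 0 members were compared between the tissues there.

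The promoter of Hes5 is shown because Hes5 was the member with the largest brain over tail ratio, and that of Lfng because it had the largest such ratio in the rest of the pathway. Both are the 250 bases before the gene's start in RefSeq on GRCm38.p6, plus strand, with the core motif bound by Rbpj, GTGGGAA, or its reverse, TTCCCAC, in capitals. The Hes5 window is chr4:154960673-154960922 and the Lfng window chr5:140607091-140607340.
Hes5: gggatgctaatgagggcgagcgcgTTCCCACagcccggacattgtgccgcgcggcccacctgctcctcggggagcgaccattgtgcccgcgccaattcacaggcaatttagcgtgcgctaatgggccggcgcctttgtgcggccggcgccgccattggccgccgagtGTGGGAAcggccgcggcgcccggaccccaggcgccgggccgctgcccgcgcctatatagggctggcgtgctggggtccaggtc
Lfng: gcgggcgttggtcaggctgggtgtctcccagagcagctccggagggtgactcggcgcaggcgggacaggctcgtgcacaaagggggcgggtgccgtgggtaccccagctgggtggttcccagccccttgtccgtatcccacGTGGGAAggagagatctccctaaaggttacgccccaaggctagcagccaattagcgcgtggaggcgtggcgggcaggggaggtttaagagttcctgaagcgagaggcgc

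The Hes5 window held the motif on both strands, starting 83 and 226 bases before the gene's start, and the Lfng window held it once, 109 bases before. Searched on both strands, the motif was in 5.42% of 32851 promoter windows of this length (1779). Of the other members in the table, Notch1, Notch2, Notch3, Dll1, Dll3, Jag1 and Rbpj had no match in this window, and Hes1 and Hey1 have no entry there. In the rest of the pathway list the motif was also found for Psen2, Spen, Hes7 and Hey2. The window of Nrarp, a target with a larger brain over tail ratio than Hes5, had no match. A match is a run of letters and not a measured binding site.

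Ligands and targets were rarely counted in the same brain cells, while the tail differed by target. In the brain, 2 of 173 cells with a Dll1 or Dll3 molecule also held Hes1 (1.16%, 0.14 to 4.11) against 6.71% (6.16 to 7.28) of the other cells, and 4 held Hes5 (2.31%, 0.634 to 5.81) against 6.33% (5.804 to 6.90). In the tail, 16 of 249 such cells held Hes1 (6.43%, 3.72 to 10.2) against 24.4% (22.4 to 26.5) of the others. Hes5 ran the other way in the tail, in 17 of 249 cells (6.83%, 4.03 to 10.7) against 9 of 1715 (0.525%, 0.24 to 0.994). Over all cells, ligand-carrying cells of both libraries thus held Hes1 less often, and those of the tail held Hes5 more often. Within sets of brain cells Hes1 was in 3.33% (0.406 to 11.5) of Igfbp5-marked ligand cells against 4.18% (2.36 to 6.80), in 2.38% (0.0603 to 12.6) of Top2a-marked ones against 1.28% (0.156 to 4.55) and in 3.70% (0.0937 to 19.0) of Slc1a3-marked ones against 9.23% (8.43 to 10.1), all with overlapping intervals. In the tail the Hes1 intervals lay apart among Igfbp5-marked cells, at 9.33% (3.84 to 18.3) against 29.9% (27.3 to 32.6), and overlapped among unmarked cells, at 4.64% (1.88 to 9.32) against 10.1% (7.05 to 13.9).

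Ligand cells were deeper than their libraries (median 1554 molecules for brain Dll3 cells and 1370 for tail Dll3 cells). With each cell thinned to 400 molecules, Hes1 was in 3.92% (1.08 to 9.74) of 102 tail ligand cells against 10.2% (8.86 to 11.7) of the others, intervals that overlap. Thinned brain ligand cells held Hes1 in 0 of 60, where the upper bound of 5.96% lies above the 3.66% of the other cells. Hes5 was in 2.94% (0.611 to 8.36) of the thinned tail ligand cells against 0.543% (0.261 to 0.996), and in 0 of 60 against 3.88% in the brain. After thinning, the intervals of ligand cells and other cells thus overlapped for both targets in both libraries. Overlap of intervals is not a test of the difference, and none was run. Notch1 was counted more often in ligand cells, in 25.7% (20.4 to 31.6) against 16.2% (14.4 to 18.0) of tail cells and 28.3% (21.7 to 35.7) against 11.3% (10.6 to 12.1) of brain cells, and thinned in 10.8% (5.51 to 18.5) against 6.73% (5.63 to 7.97) and 6.67% (1.85 to 16.2) against 5.98% (5.44 to 6.55), with intervals that overlap. Dll1 and Dll3 were counted together in part: of 101 brain cells with Dll1, 22.8% (15.0 to 32.2) held Dll3 against 0.913% (0.715 to 1.15) of the rest, and of 119 tail cells with Dll1, 25.2% (17.7 to 34.0) against 7.05% (5.92 to 8.31). Thinned, these were 7.50% (1.57 to 20.4) against 0.277% (0.169 to 0.427) in the brain and 7.55% (2.10 to 18.2) against 2.59% (1.92 to 3.41) in the tail, where the intervals overlap. Among unmarked tail cells, which held most of the tail Dll3, the shares were 25.0% (14.4 to 38.4) and 22.5% (18.6 to 26.8) unthinned.

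**Figure D4:**
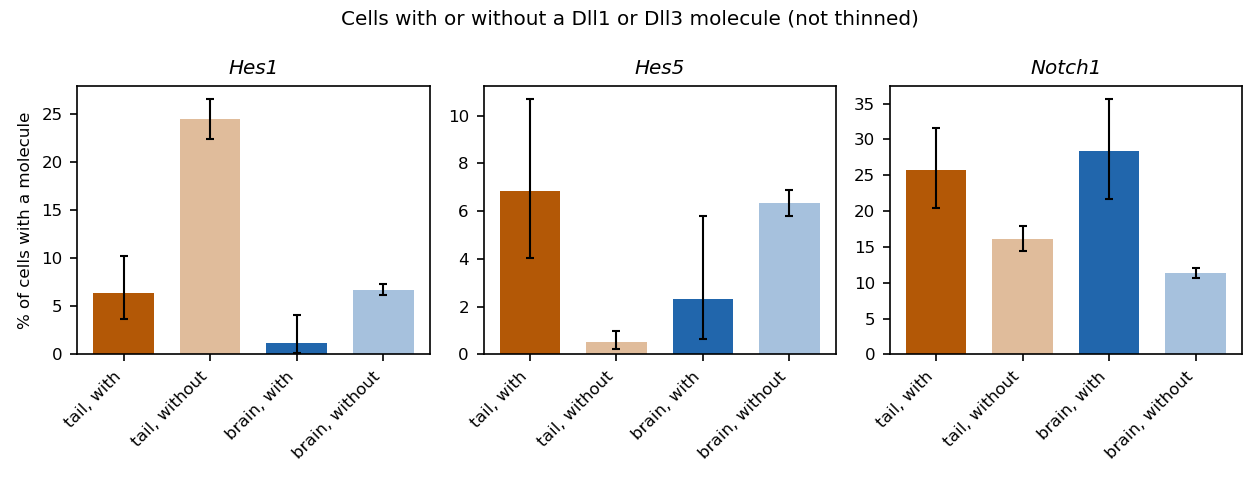
Share of cells (%) with a Hes1, Hes5 or Notch1 molecule among cells with (dark) and without (light) a Dll1 or Dll3 molecule, unthinned, with exact 95% intervals; tail orange, brain blue, each panel with its own axis from 0. Hes1 is lower in ligand cells of both libraries (6.43% and 1.16%), Hes5 is higher in those of the tail (6.83% against 0.525%), and Notch1 is higher in both (25.7% and 28.3%).

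For the 5 members called by level, shares of cells at equal depth had the same direction as the levels, whereas Notch1, with overlapping intervals, turned. Thinned to 400 molecules, which left out 19 tail and 718 brain cells, Hes1 was found in 9.87% (8.58 to 11.3) of tail and 3.63% (3.21 to 4.09) of brain cells, against 22.1% and 6.59% unthinned. Hes5 was found in 0.668% (0.356 to 1.14) and 3.85% (3.42 to 4.32). Notch1 was in 6.94% (5.85 to 8.16) and 5.98% (5.45 to 6.55), and Jag1 in 0.977% (0.589 to 1.52) and 1.004% (0.788 to 1.26), with overlapping intervals. The whole interval was higher in the tail for Notch2, Dll1, Dll3, Hes1 and Rbpj, 5 of 10 members where 26.1% of genes were, and higher in the brain for Hes5 and Hey1, where 13.7% were. As background, thinned Col1a1-marked tail cells held Hes5 and Dll3 in 0 of 177 cells, which allows a share of up to 1.69% with 3 cells as the limit (Clopper-Pearson bound 2.06%), and Hes1 in 6.78% (3.55 to 11.5). Brain cells with at least 3 molecules of macrophage genes held Hes1, Hes5, Dll1 and Dll3 in 0 of 41, which allows up to 7.32% (Clopper-Pearson bound 8.60%).

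Lfng, Nrarp, Heyl and Dtx1 of the rest of the pathway were higher in the brain, and the ligands Jag2 and Dll4 among others in the tail. Of 44 other genes listed for the pathway, 43 were found and 38 had enough molecules, 6 of them called for the tail and 4 for the brain, with a median log2 ratio of -0.01. These counts are near what 13.2% and 9.07% of all genes would give, so they set the list as a whole apart in neither direction. Lfng, a glycosyltransferase that alters which ligands a receptor heeds, was 7.87-fold (6.63 to 9.42) higher in the brain at 386 against 49.0 CPM, and Nrarp, a feedback inhibitor and Notch target, 6.74-fold (4.93 to 9.45) at 101 against 14.9 CPM. Heyl, a relative of Hey1, was 4.41-fold (2.68 to 7.75) higher, and Dtx1, a regulator of receptor traffic, 2.49-fold (2.01 to 3.11). In Slc1a3-marked cells Lfng, Nrarp and Dtx1 were again higher in the brain, 7.002-fold (5.14 to 9.79), 10.96-fold (5.28 to 27.4) and 3.71-fold (2.26 to 6.55).

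In the tail the genes called were Dlk1, Jag2, Dll4, Numbl, Dtx4 and Maml3. Dlk1, a ligand-like protein known as an inhibitor of the pathway, stood at 619 against 5.92 CPM, and 1644 of its 1745 tail molecules (94.2%) lay in Col1a1-marked fibroblasts. Jag2 and Dll4, both ligands, were 10.5-fold (5.71 to 20.9) and 5.45-fold (3.08 to 10.0) higher, with 28 of 43 Dll4 molecules in unmarked cells. Endothelial markers, a cell type that uses Dll4, came to 61.4 CPM for tail and 1.56 CPM for brain, and their part in Dll4 was not tested. Numbl, an inhibitor of receptors, Dtx4 and the coactivator Maml3 lost their calls under TMM scaling, and Dlk1, Jag2 and Dll4 kept theirs. Between Slc1a3-marked cells Maml3 (10.6-fold, 6.07 to 18.9), Numbl (5.98-fold, 3.37 to 10.5) and Dtx4 (4.75-fold, 3.72 to 6.06) were higher in the tail.

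As a description of likeness, the genes whose log2 levels over the 12 marked sets ran closest to each member were named by Pearson's r, from 3433 genes with at least 500 molecules. They were Sall3 (0.911) and Emc6 (0.875) for Notch1, Lgr4 (0.952) and Tns3 (0.944) for Notch2, Tmem100 (0.953) and P4ha1 (0.907) for Notch3, and Gapdh (0.938) and Fzd1 (0.926) for Jag1. For the delta ligands they were Pak3 (0.946) and Zcrb1 (0.928) for Dll1 and Pak3 (0.858) for Dll3. Hes1 ran closest to Igfbp2 (0.960) and Pdpn (0.957), Hes5 to Kcnk1 (0.986) and Folh1 (0.963), Hey1 to Srebf1 (0.921) and Reep5 (0.901), and Rbpj to Ythdf1 (0.897). The sets share libraries and some cells, so these are not independent points.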

How the data were processed

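Sox1-GFP+ cells of mouse tail and brain (1 BD Rhapsody library each) were compared. Per the file headers, the authors ran BD Rhapsody WTA Analysis Pipeline 1.10.1 on GRCm38 with GENCODE vM19. The deposited values are counts of unique molecules per gene and cell after the pipeline's correction of molecular identifiers, neither filtered further nor normalised. A newer pipeline release is given in the study's methods, and the submitters' processing notes list UMI-tools 1.0.1, STAR 2.7.1a and featureCounts 1.6.4, which may belong to other samples of the series. Since this correction removes molecules, uncorrected molecules were used as an alternative.

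Molecules were summed over the cells of a set and scaled to CPM. Ratios between libraries carry exact conditional 95% intervals, levels exact Poisson intervals, and shares of cells Clopper-Pearson intervals. Molecules of 1 cell are not independent, so these cover counting error only. A gene was tested with at least 50 molecules over both libraries and called when the whole interval lay beyond 2-fold. For a count of 0, 3 molecules were taken as the limit. Shares were also computed after thinning each cell to 400 molecules, which is needed since tail cells were deeper (median 1282 against 696 molecules). No doublet caller was run, and cells marked by several genes stayed in each set. The alternatives were TMM (edgeR 4.0.16 in R 4.3.3) or median-of-ratios scaling, other filters, marker minimums and subsets of cells. Computations used Python 3.11.15 with numpy 2.4.6, scipy 1.17.1 and pandas 2.3.3, and the interval and call code was tested on simulated data.

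The members and gene lists were chosen with earlier results of these data known. Named genes were the members, pathway genes called over all kept cells, and for each member with at least 100 molecules the 2 genes, of those with at least 500, with the highest Pearson correlation of log2(CPM + 10) over the sets. Some genes that these rules name are not reported here. Positions are those of GRCm38, and promoters come from RefSeq on GRCm38.p6.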

Additional observations from a re-analysis of the deposited data

How the results depend on the processing

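Over all kept cells, Dll3, Hes5 and Hey1 kept their calls under every alternative run, with Dll3 ratios between 3.29 and 15.5, and no called value changed direction. Ratios that were not called crossed 1 in places, among them Notch1 over all cells (0.934), at 1.05 as a mean over cells and 1.06 without cells marked by Tmem212, Col1a1 or macrophage genes. Dll1 lost its call under TMM scaling (2.24, 1.75 to 2.87), median-of-ratios scaling (2.23) and the 20% mitochondrial limit (2.23). Hes1 lost its call in cells low in immediate early genes (1.25), and Rbpj gained one there (2.86) and without the deepest 5% of cells (2.43, 2.01 to 2.94). Of 110 single-member values over all cells, 80 stayed within the main interval. Genes of any kind called higher in tail numbered 2385 with no minimum on molecules and 749 with at least 200, against 1492. Pathway genes called higher in tail numbered 3 under TMM and 3 under median-of-ratios scaling, against 6. Between Slc1a3-marked cells, 2 members were higher in brain under TMM, under median-of-ratios scaling and with 1 marker molecule, against 1, and 0 were higher in tail in cells low in immediate early genes, against 1. Between Igfbp5-marked cells, 2 were higher in tail under either scaling, and 3 under the 20% mitochondrial limit and without Slc1a3-marked cells (where 492 of 5211 genes of any kind were), against 1, while those higher in brain numbered 2 with 3 marker molecules, 0 in cells low in immediate early genes and 2 without Top2a-marked or Stmn2-marked cells (where 341 of 6366 genes were), against 1. Between Top2a-marked cells 0 were higher in tail in cells with no other mark (Hes1 11.3, 1.27 to 536) and in cells low in immediate early genes (Hes1 4.86, 1.15 to 43.3), against 1, and between Stmn2-marked cells 1 was with 1 marker molecule, against 0. Members highest in Slc1a3-marked tail cells numbered 7 with 3 marker molecules, against 4, and in brain 5, against 3. Slc1a3-marked tail cells with no other mark numbered 14, under the minimum of 20. They gave no ratio and could not be ranked, so no count of members stands for them. In the brain the count with no other mark allowed was 5. It left out the Col1a1-marked cells, 8 of which had no other mark. The subsets low in immediate early genes, without shared cell indices and without a second marker were chosen after seeing the data. No paired analysis was possible because each tissue has 1 library.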

Other observations

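With 1 library per tissue, every difference between tail and brain carries the tissue, the age of the mice and the library together, and no interval here covers variation between animals. Sets marked by 1 gene are not cell types: Slc1a3 and Igfbp5 take in different cells in the tissues, and 387 of 408 Slc1a3-marked tail cells bear both marks. Counts of 0 in small sets bound a level only loosely: 3 molecules would be 44.9 CPM in the 37 Tmem212-marked tail cells and 39.9 CPM in the 53 of the brain.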
